A study of Mus musculus with 8 samples.

Results

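Genes that mark resident, perivascular-type macrophages were followed in RNA of the epididymal white fat depot of mice that ate a high-fat diet. The 10 genes were Mrc1, Lyve1, Timd4, Folr2, Cd163, F13a1, Clec10a, Cd209f, Retnla and Maf, taken by name from the count table. Each matched 1 row, and all 10 passed the filter on low counts, out of 31854 rows in the table and 15667 rows tested. The genes are a list of names, with no cut-off on measured values, chosen with earlier results of these data known. Mice labelled WT carried wild-type PPAR-gamma, and mice labelled S273A carried a knock-in that puts alanine at position 273 in place of serine. Both groups shared the tissue and the diet, and each had 4 libraries: WT replicates 1, 2, 3 and 5, and S273A replicates 2, 3, 4 and 6. The sources used here do not give strain, age or the length of the diet. Zygosity is not stated in words, but the titles of the S273A libraries carry the code AA, whose meaning is not explained. The knock-in is a change of the germline, so every cell type of the depot carries it, macrophages included.

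Macrophages of fat fall broadly into resident cells, many of which lie along vessels, and cells that arrive from the blood and gather around dying, lipid-laden adipocytes in obesity. Resident cells take up proteins, sugars and debris through scavenger receptors and lectins, and the transcription factor Maf helps to hold that state. Several of the genes also respond to the type 2 cytokines IL-4 and IL-13, which act through STAT6. PPAR-gamma itself is expressed in macrophages and can act together with STAT6 at such genes, while in adipocytes it drives the fat cell programme.

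Total counts ran from 14880239 to 18194889 per library. Levels are CPM, read counts relative to the library's total, scaled by the TMM-corrected library size, and means carry the SD over the 4 libraries of a genotype. Where 4 values are listed, they follow the replicate order given above. Fold changes are S273A over WT, on the log2 scale, from edgeR's quasi-likelihood test with Benjamini-Hochberg adjustment over all 15667 rows. Adipocyte genes were abundant in every library, with a summed level of 6277 to 8947 CPM in WT and 7262 to 9423 CPM in S273A. Macrophage genes shared by most macrophages, 18 in number, summed to 7123 to 8916 CPM in WT and 6277 to 7765 CPM in S273A. Whether each library is its own animal is not stated, so the p-values may measure technical spread only.

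The 10 genes did not separate the genotypes. In edgeR's quasi-likelihood test 0 of 10 were called, as were 0% of all rows, with an adjusted p of 0.9999 for each of the 10. DESeq2 and limma-voom also called 0 of the 10. Over all rows DESeq2 called 1 of 22708 and limma-voom 0 of 15667. At an unadjusted p under 0.05 there was 1 of 10, Retnla, in each of these 3 tools. In edgeR the share over all rows was 1.46%, and for DESeq2 and limma-voom that share is not given here. The genotypes overlapped in all 10 genes, while 1.19% of all rows had no overlap. Estimates were negative for 8 of 10, against 49.3% of all rows, and the median log2 fold change was -0.08 against 0.001 over all rows. That count of 8 rested on single libraries: it was 4 without S273A replicate 2 and 5 without WT replicate 5, and the median was 0.008 and -0.01.

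**Figure D1:**
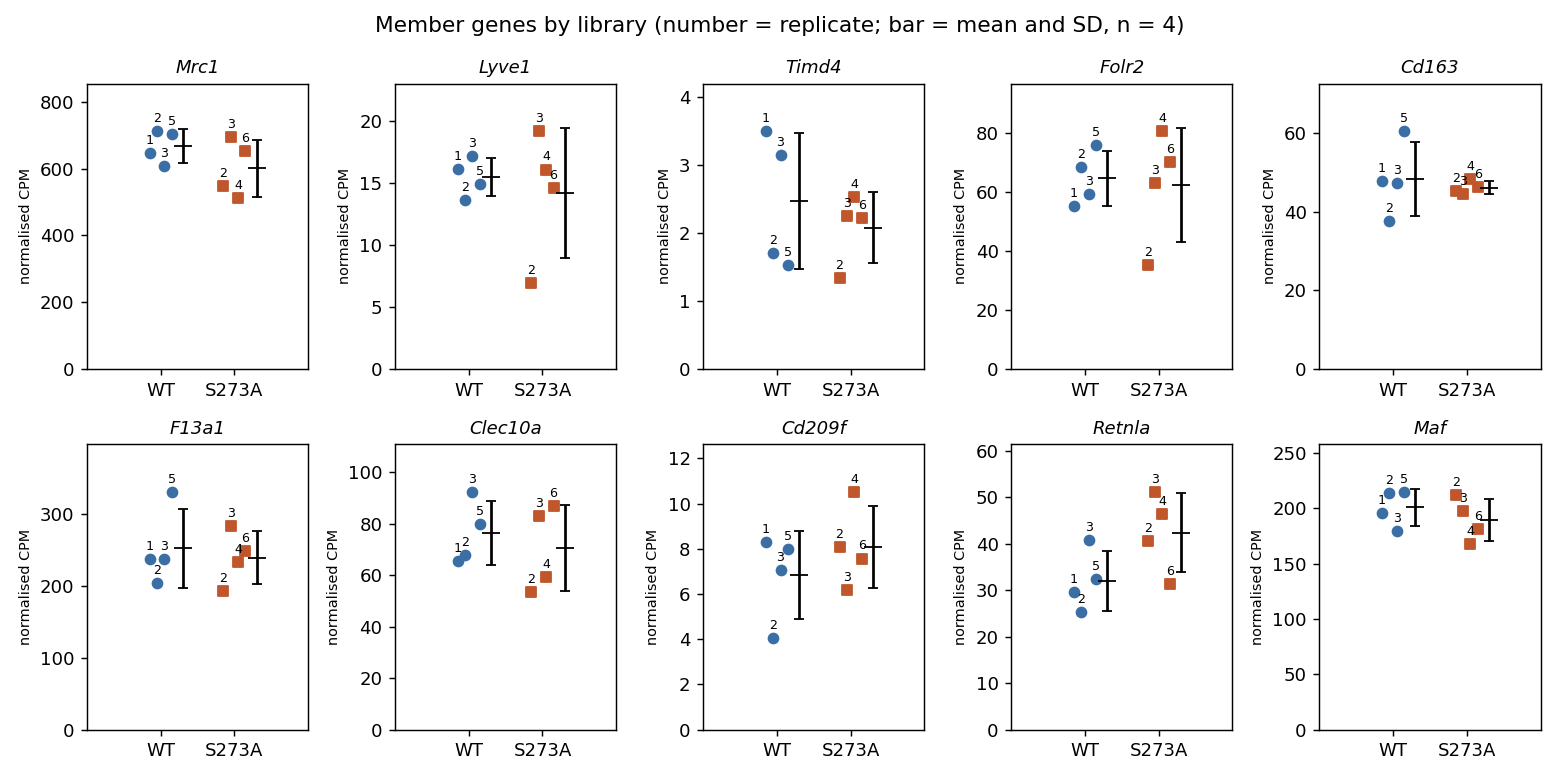
Normalised CPM (y axis, starting at 0) of the 10 genes in each library, WT as circles and S273A as squares, with the replicate number above each point. Bars give the mean and SD over 4 libraries; the genotypes overlap in all 10 panels, and S273A replicate 2 lies lowest for Lyve1, Timd4, Folr2, F13a1 and Clec10a.

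Retnla, which encodes the secreted protein RELM-alpha and is strongly induced by IL-4 and IL-13, had the smallest p of the 10. Its level was 29.6, 25.4, 40.8 and 32.4 CPM in WT and 40.5, 51.1, 46.4 and 31.3 CPM in S273A. The upper S273A libraries, replicates 3 and 4, lay above every WT library, but S273A replicate 6 lay within the WT range. The means were 32.0 ± 6.51 and 42.3 ± 8.53 CPM, which is a log2 fold change of 0.41 with an SE of 0.17 (95% confidence interval 0.02 to 0.79). The unadjusted edgeR p was 0.0397, which did not survive adjustment. The estimate stayed positive in all 16 alternatives, from 0.31 to 0.55, with unadjusted p-values between 0.00758 and 0.112. It was smallest without WT replicate 2 (0.31, edgeR unadjusted p 0.106) and without S273A replicate 3 (0.31, p 0.112).

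The promoter of Retnla is shown because this gene had the smallest p and because its type 2 cytokine response runs through STAT6. RefSeq promoters of 300 bases, 250 before and 50 after the transcript start, were found for 7 of the 10 genes (9 promoters, GRCm38.p6). That of Retnla lies at chr16:48842359-48842658 on the plus strand, and that of Cd209f, the other gene with a positive estimate, at chr8:4105715-4106014 on the minus strand. Capitals mark the palindrome bound by STAT6 (TTC and GAA with 4 bases between them), the MAF core element TGCTGAC on either strand, and the TATA box TATAAA.
Retnla promoter: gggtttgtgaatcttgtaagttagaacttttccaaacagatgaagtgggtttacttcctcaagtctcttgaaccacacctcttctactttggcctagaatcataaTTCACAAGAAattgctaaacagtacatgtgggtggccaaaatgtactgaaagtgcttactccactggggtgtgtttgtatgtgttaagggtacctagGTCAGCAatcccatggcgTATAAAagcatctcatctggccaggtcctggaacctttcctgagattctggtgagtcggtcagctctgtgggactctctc
Cd209f promoter: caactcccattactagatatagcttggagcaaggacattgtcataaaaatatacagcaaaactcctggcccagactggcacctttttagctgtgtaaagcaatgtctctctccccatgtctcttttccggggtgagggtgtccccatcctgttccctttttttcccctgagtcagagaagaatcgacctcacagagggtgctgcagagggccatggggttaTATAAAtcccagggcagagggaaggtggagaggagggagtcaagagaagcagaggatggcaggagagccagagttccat
The STAT6 palindrome occurred in 1 of the 9 promoters, that of Retnla at position -145, and in 6.95% of 32851 RefSeq promoters. The MAF element was found in Retnla at position -48 and in Timd4 at position -45, on the minus strand in both, against 4.67% of all promoters. The TATA box was found in Retnla at -30 and in Cd209f at -29, against 13.6% of all promoters. A direct repeat for PPAR and RXR, searched as AGGTCA followed by AGGTCA with 1 base between them, was in 0 of 9 and in 0.0396% of all promoters. A single AGGTCA, not capitalised above, was found in Retnla at -50, where it overlaps the MAF element, and in Timd4 at -116, against 16.3% of all promoters. All motifs were searched on both strands, and a match is a description of the letters only.

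**Figure D2:**
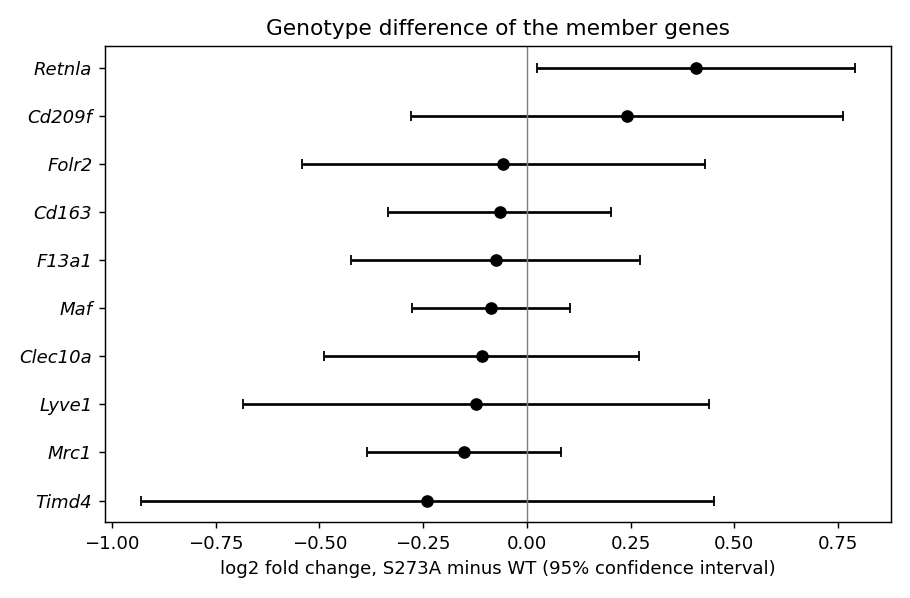
Log2 fold change of each gene, S273A minus WT (x axis), as a point with its 95% confidence interval. Retnla, at 0.41, is the 1 gene whose unadjusted interval does not reach 0.

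Among the receptors, Mrc1, the mannose receptor CD206 that binds glycoproteins and collagen for uptake, was the most abundant. It was at 646, 713, 608 and 705 CPM in WT and at 547, 694, 512 and 653 CPM in S273A. S273A replicates 2 and 4 lay below every WT library, and the other two lay inside the WT range. The means were 668 ± 50.1 and 601 ± 86.0 CPM, a log2 fold change of -0.15 (SE 0.10, interval -0.38 to 0.08; edgeR unadjusted p 0.179). The estimate was negative in all 16 alternatives, from -0.22 to -0.08, though summing the counts of close relatives leaves the Mrc1 counts unchanged. With the pan-macrophage level as a covariate it was -0.075.

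Mrc1 lies on chromosome 2 (14229392 to 14332057, plus strand, GRCm38) and carries the microRNA gene Mir511 outside its exons, at 14261003 to 14261081. The mature arm held in RefSeq is shown as a product of the same primary transcript, with its seed, bases 2 to 8, in capitals.
mmu-miR-511-3p: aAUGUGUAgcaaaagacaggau
The Mir511 row, singled out after its values were seen, held 10 to 22 reads per library, or 0.94 ± 0.21 CPM in WT against 0.85 ± 0.17 in S273A, with an estimate of -0.16 (SE 0.25). Such reads cannot be told apart from unspliced Mrc1 RNA and do not measure the mature microRNA.

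Cd163 encodes the scavenger receptor for complexes of haemoglobin and haptoglobin. Its level was 47.7, 37.7, 47.2 and 60.5 CPM in WT and 45.3, 44.5, 48.4 and 46.3 CPM in S273A. The S273A libraries were close together and all lay inside the WT range, which was set by replicate 2 at the bottom and replicate 5 at the top. The means were 48.3 ± 9.34 and 46.1 ± 1.70 CPM, a log2 fold change of -0.07 (SE 0.12). Cd163 is the only one of the 10 on chromosome 6, at 124304656 to 124330527 on the plus strand, 8.81 Mb from Pparg, the gene that carries the knock-in.

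Lyve1, a hyaluronan receptor found on perivascular macrophages and on lymphatic endothelium, varied mainly through 1 library. It was at 16.1, 13.6, 17.2 and 14.9 CPM in WT and at 6.91, 19.2, 16.1 and 14.6 CPM in S273A. S273A replicate 2 was the lowest and S273A replicate 3 the highest of the 8, so the knock-in range enclosed the WT range. The means were 15.5 ± 1.55 and 14.2 ± 5.21 CPM (log2 fold change -0.12, SE 0.25). Without S273A replicate 2 the sign turned, to 0.11 (SE 0.12).

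Folr2, the folate receptor beta of resident macrophages, showed the same low library. Its level was 55.2, 68.6, 59.2 and 76.0 CPM in WT and 35.3, 63.1, 80.7 and 70.3 CPM in S273A. The means were 64.8 ± 9.34 and 62.4 ± 19.4 CPM, a log2 fold change of -0.06 (SE 0.22). Without S273A replicate 2 it was 0.14 (SE 0.12), and without WT replicate 5 it was 0.03 (SE 0.24). The antisense gene Gm10602 covers 975 of the 1546 exon bases of Folr2 on chromosome 7. The libraries keep no strand, so part of the Folr2 count could come from that gene.

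Timd4, or Tim-4, a receptor for phosphatidylserine on dying cells and a mark of long-lived resident macrophages, was the rarest. It held 59, 30, 46 and 26 reads in the WT libraries and 24, 40, 44 and 36 in those of S273A. These reads correspond to 3.50, 1.71, 3.15 and 1.53 CPM in WT and 1.34, 2.25, 2.53 and 2.22 CPM in S273A. WT replicates 1 and 3 lay above all S273A libraries, while WT replicates 2 and 5 lay near the bottom. The log2 fold change was -0.24 (SE 0.31, interval -0.93 to 0.45), the widest interval of the 10. Without WT replicate 1 it was -0.02, and without S273A replicate 2 it was -0.07.

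The lectins were Clec10a and Cd209f. Clec10a, the galactose-type lectin CD301 of macrophages and dendritic cells, was at 65.3, 67.7, 92.4 and 79.7 CPM in WT and at 53.5, 83.0, 59.5 and 86.9 CPM in S273A. S273A replicates 2 and 4 lay below the WT range, and replicates 3 and 6 within it. The means were 76.3 ± 12.4 and 70.7 ± 16.7 CPM (log2 fold change -0.11, SE 0.17). Its neighbour and near copy Mgl2, on chromosome 11 as well, was at 9.30 ± 1.84 and 8.91 ± 1.56 CPM. Of the 36-base words in the longest Clec10a transcript, 14.2% also occur in Mgl2, so reads of the length used here can fit both.

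Cd209f belongs to a family of mannose-type lectins related to DC-SIGN, spread with its relatives along chromosome 8. It was at 8.31, 4.04, 7.05 and 7.99 CPM in WT and at 8.08, 6.19, 10.5 and 7.57 CPM in S273A. WT replicate 2 was the lowest and S273A replicate 4 the highest, with the other 6 libraries between 6.19 and 8.31 CPM. The means were 6.84 ± 1.95 and 8.09 ± 1.80 CPM (log2 fold change 0.24, SE 0.23; edgeR unadjusted p 0.323). Without WT replicate 2 the estimate was 0.05, and without S273A replicate 4 it was 0.09.

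Of the 36-base words of Cd209f, 27.6% also occur in Cd209g, so the counts of Cd209f and Cd209g are uncertain where reads fit both. Cd209d was at 0.95, 0.46, 2.12 and 1.94 CPM in WT and at 3.51, 1.91, 3.79 and 2.28 CPM in S273A. Its log2 fold change was 1.09 (SE 0.41; edgeR unadjusted p 0.0258, adjusted p 0.9999), and the genotypes overlapped at WT replicate 3, WT replicate 5 and S273A replicate 3. Cd209b (0.73, SE 0.40) and Cd209g (0.58, SE 0.31) had positive estimates as well, and Cd209a, a marker of dendritic cells, had 0.11 (SE 0.26). WT replicate 2 was the lowest library for Cd209b, Cd209d, Cd209f and Cd209g alike. Without it the estimates were 0.42 for Cd209b, 0.79 for Cd209d and 0.35 for Cd209g. With the counts of Cd209f and Cd209g summed, a setting chosen after seeing the data, the Cd209f estimate was 0.32 (SE 0.24).

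**Figure D3:**
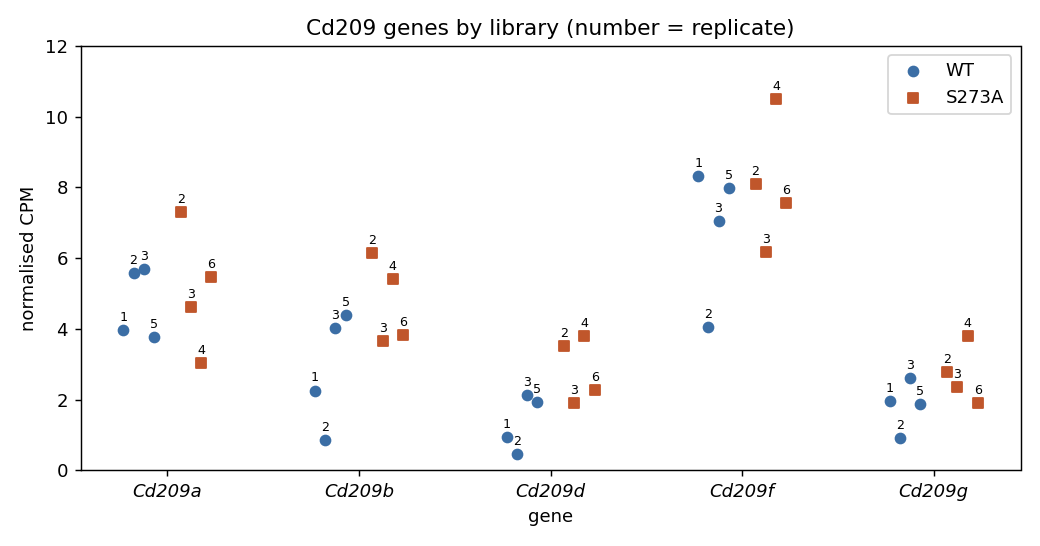
Normalised CPM (y axis, starting at 0) of 5 Cd209 genes in each library, WT as circles and S273A as squares, with the replicate number above each point. WT replicate 2 is the lowest library for Cd209b, Cd209d, Cd209f and Cd209g, and the genotypes overlap for each gene.

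F13a1 encodes the A subunit of coagulation factor XIII, which macrophages hold inside the cell. It was at 237, 204, 238 and 331 CPM in WT and at 193, 283, 234 and 248 CPM in S273A. WT replicate 5 was the highest and S273A replicate 2 the lowest. The means were 252 ± 54.6 and 239 ± 37.3 CPM, a log2 fold change of -0.08 (SE 0.16), which was 0.08 without WT replicate 5 and 0.01 without S273A replicate 2.

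Maf, the transcription factor c-Maf, was the steadiest of the 10. It was at 196, 214, 180 and 215 CPM in WT and at 212, 198, 168 and 181 CPM in S273A. The means were 201 ± 16.8 and 190 ± 19.2 CPM, a log2 fold change of -0.09 (SE 0.09, interval -0.28 to 0.10). Antisense gene Gm15655 shares 440 exon bases with Maf.

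Per kilobase of the length column, the levels over all 8 libraries ran from 119 ± 13.9 CPM per kb for Mrc1 to 1.05 ± 0.35 for Timd4. Retnla (62.2 ± 14.9), Folr2 (47.8 ± 10.7), F13a1 (38.8 ± 6.92), Maf (35.4 ± 3.23) and Clec10a (29.4 ± 5.58) followed Mrc1, and each overlapped its neighbour in that order. Cd163 (10.5 ± 1.41), Cd209f (6.40 ± 1.60) and Lyve1 (5.69 ± 1.39) came next, again with overlap between neighbours. Gaps without overlap lay between Mrc1 and Retnla, between Clec10a and Cd163, and between Lyve1 and Timd4.

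The spread between libraries differed among the genes. The biological coefficient of variation in edgeR was 9.38% for Maf and 11.0% for Mrc1. It was 21.3% for Folr2, 24.3% for Lyve1 and 27.2% for Timd4. For 9 of the 10 it lay above the trend for rows of the same abundance, against 28.0% of all rows. The median ratio to the trend was 1.5 for the 10 genes and 0.803 over all rows. These are descriptions of the spread, with no test.

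**Figure D4:**
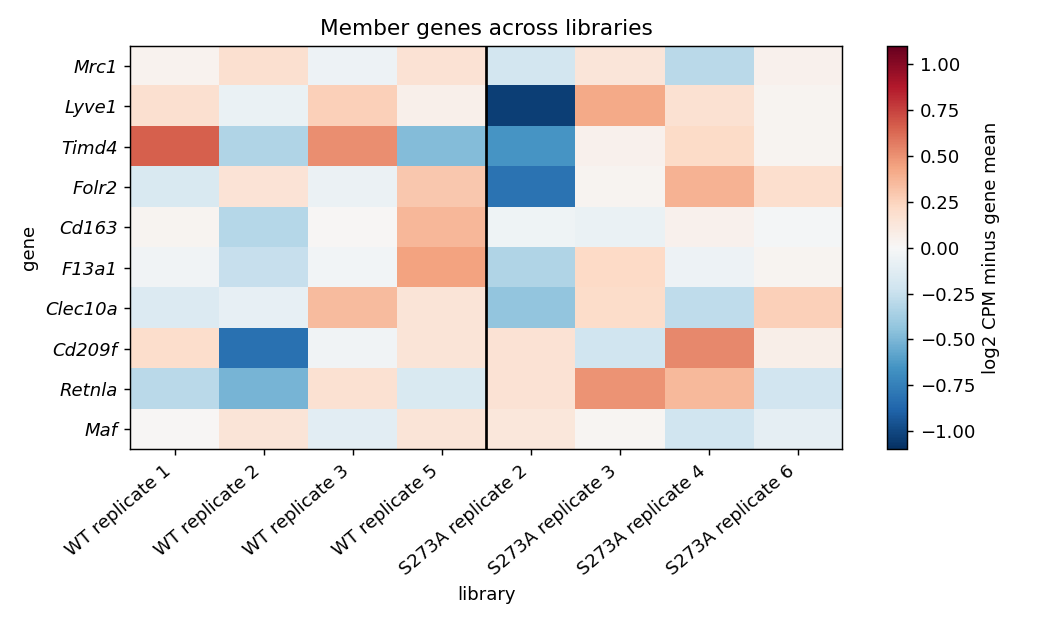
Log2 CPM minus the gene's mean over 8 libraries (colour), by gene and library, with WT to the left of the line. S273A replicate 2 is 1.04 below the mean for Lyve1 and 0.81 below for Folr2, while WT replicate 2 is 0.82 below for Cd209f and 0.51 below for Retnla.

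These 10 genes did not move as 1 block. S273A replicate 2 was the lowest library for 5 genes (Lyve1, Timd4, Folr2, F13a1 and Clec10a). Its level there was exceeded by the mean of the other S273A libraries 2.40-fold for Lyve1, 2.02-fold for Folr2, 1.74-fold for Timd4, 1.43-fold for Clec10a and 1.32-fold for F13a1. In the same library Retnla, Cd163 and Cd209f were near the other S273A libraries (1.06-fold, 1.02-fold and 1.00-fold), and Maf was higher there than in the other 3. Its pan-macrophage score, the mean centred log2 CPM of that list, was -0.06, and that of 22 other resident macrophage genes 0.01. Its scores were -0.58 for platelet genes, -0.55 for lymphatic endothelial genes, -0.44 for large peritoneal macrophage genes, -0.25 for monocyte genes and 0.30 for adipocyte genes, and their part in the low values was not tested.

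WT replicate 2 was the lowest for 3 genes, Cd163, Cd209f and Retnla, and the highest for Mrc1. It also had the highest pan-macrophage score (0.26), the highest lipid-associated macrophage score (0.30) and the lowest adipocyte score (-0.34) of the 8 libraries. The part of these scores in the low values was not tested. With the pan-macrophage score as a covariate, the Cd209f estimate was -0.001 (SE 0.12) and that of Retnla 0.33 (SE 0.18, edgeR unadjusted p 0.1). Subtracting the same score from log2 CPM instead gave a Cd209f difference of 0.35, against 0.26 without it. The 2 uses of the score thus moved Cd209f in opposite directions.

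Relative to the pan-macrophage score, the genotype difference in log2 CPM was -0.07 for Mrc1 and -0.0008 for Maf. Without that reference it was -0.16 and -0.09. The reference is 1 score per library, so it moved the difference of all 10 genes up by the same amount. Cd163 went from -0.05 to 0.04 and F13a1 from -0.07 to 0.02. For Retnla the difference was 0.4 without the reference and 0.49 with it. Its relative values ran from -0.77 to 0.21 in WT libraries and from -0.23 to 0.55 in S273A libraries, which overlap. In whole tissue, fewer macrophages and less RNA per macrophage cannot be told apart.

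Other genes of resident macrophages, 25 listed of which 22 had a row and were tested, gave 0 calls in edgeR and 1 at an unadjusted p under 0.05, Cd209d. Of the estimates 14 were positive and 8 negative, and the median was 0.07. Ednrb, the endothelin receptor B, was at 82.1 ± 6.58 and 89.6 ± 8.81 CPM. Pan-macrophage genes had 0 of 18 calls and 0 at an unadjusted p under 0.05, with 15 negative estimates and a median of -0.07. Csf1r, the receptor for colony-stimulating factor 1, was at 763 ± 58.8 and 701 ± 49.2 CPM. Lipid-associated macrophage genes had 0 of 14 calls and 0 at an unadjusted p under 0.05, with 11 negative estimates and a median of -0.05. The elastase gene Mmp12 was at 356 ± 108 and 302 ± 106 CPM.

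Genes of the type 2 cytokine response were followed beside Retnla, Mrc1 and Clec10a; the list holds cytokines, receptors and transcription factors as well as target genes of IL-4 and IL-13. Of 20 genes with a row, 15 were tested. The cytokine genes Il4, Il13 and Il5 were among the 5 under the filter. In edgeR 0 were called and 1 had an unadjusted p under 0.05, with 7 positive and 8 negative estimates and a median of -0.007. That gene was Il33, an alarmin that activates type 2 lymphoid cells. It ranged from 11.7 to 14.3 CPM in WT and from 13.8 to 17.6 CPM in S273A. The log2 fold change was 0.26 (SE 0.10; edgeR unadjusted p 0.0279, adjusted p 0.9999). The genotypes overlapped, since S273A replicate 2 lay below WT replicate 2. Its receptor gene Il1rl1 had an estimate of -0.29 (SE 0.19), the chitinase-like gene Chil3 one of 0.50 (SE 0.31), and Klf4 one of 0.09 (SE 0.06).

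Several of the 10 genes are also expressed by other cells of the depot, whose markers were measured beside them. Lymphatic endothelial genes, which share Lyve1, summed to 64.7 to 132 CPM in WT and 69.6 to 111 CPM in S273A, with 5 of 6 tested estimates negative. Dendritic cell genes, which share Clec10a, summed to 271 to 329 CPM and 256 to 326 CPM, with 7 of 11 positive. Large peritoneal macrophage genes, which share Timd4, summed to 218 to 386 CPM and 273 to 362 CPM, a sum made up mostly of Lbp (240.1 ± 71.2 and 239.5 ± 37.6 CPM). Their score, which weights genes equally, had WT libraries between -0.19 and 0.08 and S273A libraries between -0.44 and 0.35, and 5 of 7 estimates were positive (median 0.09, highest 0.51 for Alox15). Gata6, a transcription factor on that list, was at 29.2 ± 3.01 and 28.6 ± 2.65 CPM, and which cells of the depot it came from was not tested. Monocyte genes, which share F13a1, summed to 1357 to 2353 CPM and 1584 to 2411 CPM, made up mostly of Hp (1415 ± 447 and 1474 ± 335 CPM). Their score had WT libraries between -0.13 and 0.15 and S273A libraries between -0.25 and 0.20, and 5 of 11 estimates were positive. WT replicate 2 had the lowest monocyte sum and the lowest large peritoneal macrophage sum of all libraries, and the lowest adipocyte sum (6277 CPM). Its monocyte score was nevertheless the upper end of the WT range, 0.15. Which cells of the depot the Hp and Lbp reads came from was not tested. Platelet genes, which share F13a1 too, summed to 7.12 to 11.1 CPM and 5.69 to 9.95 CPM, with 1 of 3 tested estimates positive. T cell genes, which share Maf, summed to 43.4 to 101 CPM and 46.5 to 109 CPM, with all 7 estimates negative. The ranges of the 2 genotypes overlapped for each of these lists. In edgeR 0 genes of these 6 lists were called and 0 had an unadjusted p under 0.05, and no listed marker with a row was at 0 in every library. The part of these cells in the values of the 10 genes was not tested.

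The rows whose profile over the 8 libraries was most like the mean centred profile of the 10 genes, among 13797 other rows whose log2 CPM averaged 1 or more, were ranked as a description. They were Mitd1, Smug1, Ripk2, Morf4l2, 1110008F13Rik, Dtl, AK054122, Mcm2, Lrrc51 and Ncaph. Their Pearson r with that profile lay between 0.913 and 0.951 over 8 libraries. The libraries differed in total count and in list scores, with T cell scores from -0.70 in WT replicate 5 to 0.61 in S273A replicate 3. The part of such differences in the r values was not tested. None of these rows belongs to a macrophage list used here. Across the libraries Mitd1 ranged over 0.23 log2 units and the replication gene Dtl over 0.74.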

How the data were processed

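Counts per gene row were deposited by the authors for 8 libraries, not normalised, with the row's feature length in bases beside them. Per the labels' protocols, each library began with 400 ng of RNA, from which ribosomal RNA was removed, followed by cDNA synthesis without strand marking; the cDNA was tagmented and sequenced as paired reads of 36 bases. Per the submitters' processing notes, HISAT2 2.0.5, Picard 2.9.2 and featureCounts 1.5.2 were used with mm10. For the annotation and the treatment of duplicate or multi-mapping reads, the source used here says nothing.

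Groups came from the genotype label and replicate numbers from the titles. Rows passing filterByExpr (about 10 counts in at least 4 libraries) were fitted with edgeR 4.0.16 (R 4.3.3), TMM scaling and a robust quasi-likelihood fit, with calls made below an adjusted p of 0.05. Standard errors were taken from the F statistic. The fit was tested on simulated data. Alternatives were DESeq2 1.42.0, limma-voom 3.58.1, other scalings, no filter, a covariate, a replicate block and leaving out each library. A further alternative, chosen after seeing the data, added the counts of Mgl2, Cd209g and Retnlg to those of Clec10a, Cd209f and Retnla. Log2 CPM used a prior count of 2. Positions came from GENCODE M21 (GRCm38), and 36-base words from its transcripts.

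The 10 genes and all lists were chosen with earlier results of these data known. Named genes were the 10, their close relatives, up to 4 genes per list with the smallest p, and the 10 rows most alike in profile; Gata6, Lbp, Hp, Il4, Il13, Il5 and Mir511 were named outside this rule, after their values were seen.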

Additional observations from a re-analysis of the deposited data

How the results depend on the processing

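None of the 10 genes was called in any of the 16 alternatives (lowest adjusted p 0.999), and in none of the 12 with a value per library did the genotypes stop overlapping. The median log2 fold change lay between -0.14 and 0.008, the latter without S273A replicate 2. The number of negative estimates, 8 of 10, was 4 to 8 when 1 library was left out, and 5 with the replicate block. Under that block Cd163 (0.0897), F13a1 (0.0859) and Maf (0.0606) turned positive, and Mrc1 (-0.0955) was less negative. Lyve1 (-0.387), Timd4 (-0.421), Folr2 (-0.432) and Clec10a (-0.247) were more negative there than in the main fit. Cd209f (0.401) and Retnla (0.499) were higher. With the pan-macrophage covariate Cd209f turned to -0.00149. Leaving out 1 library gave -0.30 to 0.11 for Lyve1, -0.21 to 0.14 for Folr2, -0.17 to 0.0614 for Cd163, -0.17 to 0.081 for F13a1 and -0.22 to 0.00251 for Clec10a, the positive ends without S273A replicate 2 for Lyve1, Folr2 and Clec10a and without WT replicate 5 for Cd163 and F13a1. The cause was not tested. Mrc1, Timd4 and Retnla changed sign in 0 of 16 alternatives. Summing the counts of close relatives leaves Mrc1 (-0.151) and Timd4 (-0.24) as in the main fit, because their own counts do not change there. For these genes that alternative could not show a change of sign. With 1 library left out, Timd4 ranged from -0.415 without WT replicate 5 to -0.0168 without WT replicate 1. Maf ranged from -0.144 to -0.0306 with 1 library left out.

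The labels give no pairing: replicate numbers 2 and 3 occur in both genotypes. Deviations of same-numbered libraries from their genotype mean correlated at -0.08 and -0.22 over genes. With 2 such pairs it cannot be told whether same-numbered libraries share more than a number. The block changed no call, but replicates 1, 4, 5 and 6 each occur in a single genotype. Its genotype estimate therefore rests on replicates 2 and 3 alone. The median width of the 95% interval, on either side of the estimate, was 0.38 for the 10 genes, from 0.191 to 0.691, and 0.24 over all rows.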

Other observations

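Genes that handle the ligands of Cd163, Lyve1 and Folr2 were measured as well. Of 16 listed genes for haemoglobin and haem breakdown, hyaluronan and folate, 14 had a row and were tested, 9 with positive and 5 with negative estimates, and a median log2 fold change of 0.04. In edgeR 0 were called and 0 had an unadjusted p under 0.05. Hyal2, a hyaluronidase, had a level of 43.4 ± 1.75 CPM in WT against 47.0 ± 2.87 in S273A (SD over 4 libraries). Blvrb, a biliverdin reductase, was at 49.9 ± 3.58 and 46.3 ± 1.20 CPM. The hyaluronan synthases Has2 (5.25 ± 0.28 and 6.24 ± 1.82 CPM) and Has1 (4.76 ± 1.24 and 5.57 ± 0.87 CPM) overlapped between genotypes within 1 SD.

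Relatives of Retnla were measured beside it. Retn, the adipocyte hormone resistin, had 84.5 ± 19.1 CPM in WT against 93.7 ± 48.1 in S273A; of the latter, replicate 2 was at 164 CPM and the rest between 55.8 and 85.6 CPM. Retnlg, a gene of neutrophils, was at 0.84 ± 0.44 and 1.22 ± 0.82 CPM. Of the 36-base words of Retnla, 3.72% also occur in Retnlg. Folr1, the relative of Folr2 beside it on chromosome 7, was at 0.84 ± 0.32 and 0.89 ± 0.37 CPM.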
